A study of Mus musculus with 24 samples.

Results

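The renin-angiotensin system was followed in mouse mesenteric arteries through 7 genes, taken from the deposited table by their Ensembl identifiers out of 29020 gene rows: Agt, Ren1, Ace, Agtr1a, Agtr2, Atp6ap2 and Lnpep. Mesenteric arteries are the resistance vessels that supply the gut. Total RNA from them was sequenced in 24 male mice, 6 in each of 4 groups, and each library came from 1 mouse, named here by its animal ID. All mice carried a Cre recombinase driven by the Tie2 promoter, which is active in endothelium, and all were given tamoxifen to switch it on (1 mg/kg/day under the skin for 5 days, from an age of 10 to 12 weeks). The ieCre mice carried the recombinase alone and served as controls. In the ieET-1 mice, tamoxifen also led to overexpression of human endothelin-1 by endothelial cells. Each genotype was studied 16 days (short term) and 3 months (long term) after tamoxifen. A long-term mouse was therefore also older than a short-term mouse, so time after tamoxifen and age cannot be told apart. The labels name no animal cohort, and no animal ID occurs at both times. A cohort difference therefore cannot be told apart from time either. There was no group without tamoxifen or Cre.

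In this system the precursor angiotensinogen (Agt) is cut by renin (Ren1) to angiotensin I, which angiotensin-converting enzyme (Ace) trims to angiotensin II. Angiotensin II contracts small arteries mainly through the type 1 receptor, which mice encode in a pair of genes, Agtr1a and Agtr1b, while the type 2 receptor (Agtr2) is known for opposing actions. Most circulating angiotensinogen comes from the liver and most renin from the kidney, and vessel walls are known for strong converting enzyme expression in endothelium.

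The 24 libraries held between 9635250 and 16181605 recovered reads (median 13017255). Smooth muscle markers (8 genes, summed normalized value 9106 to 21142) and endothelial markers (8 genes, 1706 to 3649) were high in every library, matching the labelled artery. Markers of neighbouring organs were present as well: the summed value of 8 pancreatic acinar genes ran from 91.0 to 58564 and that of 5 adrenal cortex genes from 2.7 to 562.7. The median acinar sum was 7535 at the short term and 10527 at the long term in ieCre. In ieET-1 it was 2837 and 32999, the latter above the median smooth muscle sum of that group, 14223. None of the 8 acinar genes passed with time in the tests described below. In 4 libraries (ieCre short-term mouse 9955, ieCre long-term mouse 9491, ieET-1 long-term mice 8135 and 8136) more than 10% of reads fell on a single gene, Gm42418. The tests below ran on log2(value + 1) over 14544 genes, those that reached a value of 1 in 6 or more libraries, with limma's moderated test, two-sided, and Benjamini-Hochberg adjustment over all of them. A gene passed when its adjusted p was below 0.05. Of the 7 genes, 6 were tested. Agtr2 reached a value of 1 in 1 library and did not pass the filter.

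The 7 genes spanned a wide range of levels. Per kilobase of exon, Atp6ap2 had a mean normalized value of 37.4 over the 24 libraries, Ace 33.5, Lnpep 20.01, Agt 4.90, Agtr1a 1.57, Ren1 1.47 and Agtr2 0.137. Atp6ap2 and Ace overlapped in every group and changed places between groups, so their order was not separated by the spread between mice. The range of Lnpep lay below that of Atp6ap2 and above that of Agt in every group. Agt stood clear of every lower gene in short-term ieCre mice and overlapped the next gene by mean in both ieET-1 groups. In long-term ieCre mice it stood clear of the next gene by mean, Agtr1a, but overlapped Ren1. There the lowest Agt value per kilobase was 1.995 and the highest Ren1 value 2.57. Ren1 and Agtr1a changed places with time: Ren1 had the higher mean per kilobase at the short term (2.17 against 1.87 in ieCre and 2.56 against 1.494 in ieET-1) and Agtr1a at the long term (1.43 against 0.713 in ieCre and 1.493 against 0.431 in ieET-1). The ranges of these 2 genes overlapped in 3 groups and did not overlap in ieET-1 mice at the long term, where the lowest Agtr1a value per kilobase was 0.870 and the highest Ren1 value 0.742. Agtr2 was last by mean in every group, and at the long term its range overlapped that of Ren1.

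**Figure D1:**
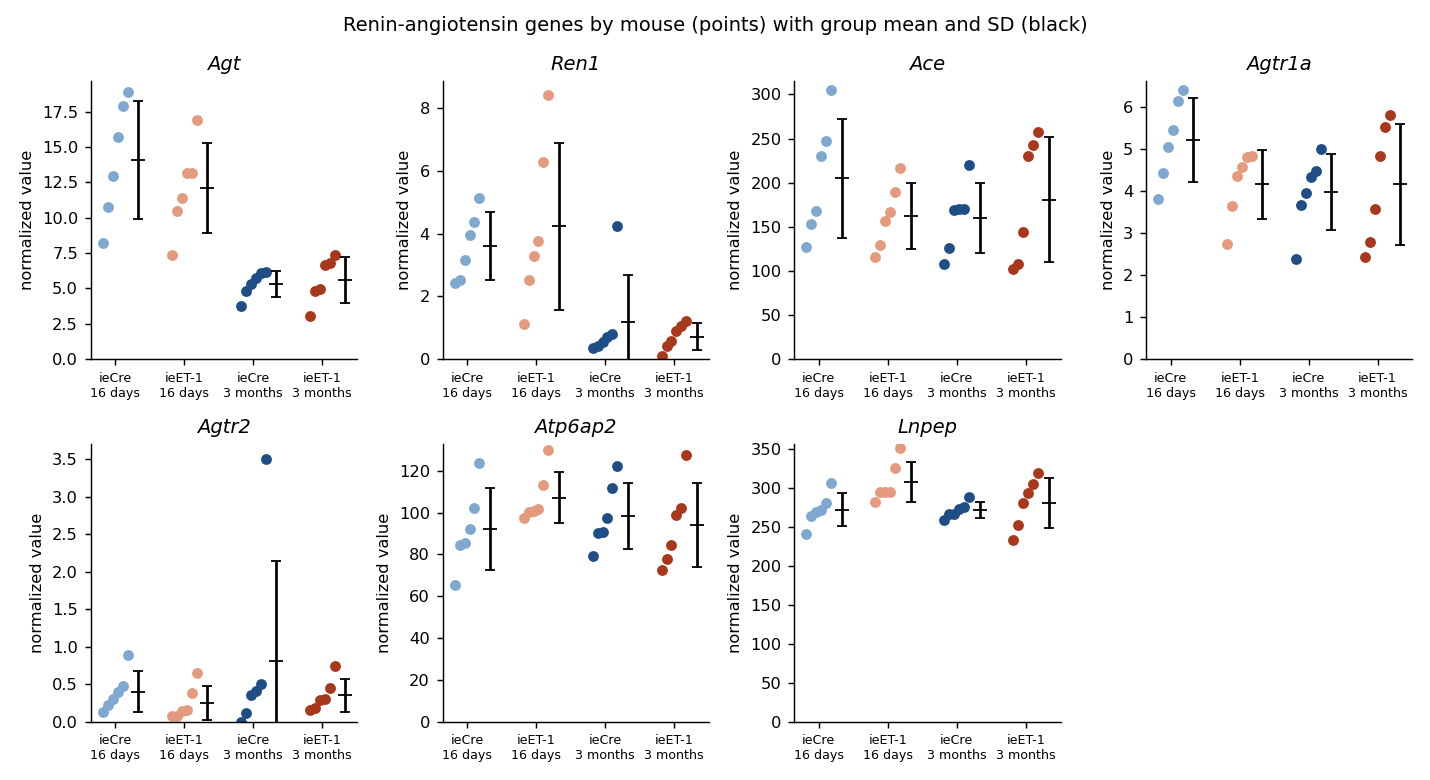
Normalized value (vertical axis, linear, a separate scale for each gene) of the 7 genes in each of the 24 mice, by group; black marks give the group mean and SD, n = 6, with bars cut at 0. Agt and Ren1 have lower medians at 3 months than at 16 days in both genotypes; the groups overlap for Ren1 through mouse 9485 in ieCre and through 16-day mouse 256 in ieET-1, which also lies just under the highest 3-month Agt value, and a single mouse at 3.51 stands above the other Agtr2 values.

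The precursor gene Agt (ENSMUSG00000031980, chromosome 8, 124556534 to 124569706 on the minus strand, GRCm38, protein coding) was lower at the long term in both genotypes. In ieCre mice its normalized value ran from 8.19 to 18.9 (median 14.3) at the short term and from 3.77 to 6.18 (median 5.53) at the long term. In ieET-1 mice it ran from 7.37 to 16.9 (median 12.3) at the short term and from 3.03 to 7.38 (median 5.81) at the long term. The ieCre groups did not overlap, a property of 2.61% of all genes tested in that comparison, while the ieET-1 groups met at their edges (3.52% of all genes did not overlap there). The mean fell from 14.1 ± 4.18 to 5.32 ± 0.913 in ieCre and from 12.1 ± 3.202 to 5.60 ± 1.63 in ieET-1 mice (SD, n = 6 per group), which are ratios of 2.64 and 2.16. These values rest on 40 to 245 reads per library. On the log2(value + 1) scale Agt fell by 1.22 in ieCre (95% interval -1.63 to -0.81, limma adjusted p = 0.000778). In ieET-1 it fell by 0.99 (95% interval -1.40 to -0.58, limma adjusted p = 0.00320).

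Ren1 (ENSMUSG00000070645, chromosome 1, 133350510 to 133360325 on the plus strand, GRCm38, protein coding), the gene of the enzyme that starts the cascade, was also lower at the long term in both genotypes. In ieCre mice its normalized value ran from 2.42 to 5.13 (median 3.57) at the short term and from 0.366 to 4.26 (median 0.619) at the long term. Of the 6 long-term ieCre mice, all but mouse 9485, at 4.26, were at or below 0.813 and thus under every short-term mouse. In ieET-1 mice Ren1 ran from 1.12 to 8.44 (median 3.53) at the short term and from 0.106 to 1.23 (median 0.732) at the long term, and the groups overlapped only through the lowest short-term mouse, 256. The means were 3.599 ± 1.08 and 1.18 ± 1.52 in ieCre and 4.24 ± 2.67 and 0.714 ± 0.422 for the ieET-1 mice (SD, n = 6, short then long term). Ren1 fell by 1.24 on the log2(value + 1) scale in ieCre (95% interval -1.89 to -0.58, limma adjusted p = 0.0305). In ieET-1 it fell by 1.488 (95% interval -2.14 to -0.83, limma adjusted p = 0.00519). Long-term libraries held few Ren1 reads, 6 to 51 in ieCre and 1 to 14 in ieET-1, and a log2(value + 1) difference understates the change of so low a gene.

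The Ren1 call in ieCre depended on the processing and on single mice. It passed in 5 of 12 other processing choices and missed the threshold in the rest, among them edgeR (adjusted p = 0.0889) and no filter on low values (0.0700), with falls of 0.92 to 2.01 on the log2 scale over all 12. In ieET-1 it passed in 10 of 12, with falls of 1.32 to 2.61. The ieCre call was also lost without short-term mouse 8754 (adjusted p = 0.0708), 9957 (0.0607) or 9958 (0.0535) and without long-term mouse 9486 (0.0783), 9487 (0.0696) or 9491 (0.0633), although all of these fits kept the lower direction. Without mouse 9485 the fall was larger, 1.53 on the log2 scale (limma adjusted p = 0.00314). The ieET-1 call for Ren1 and both Agt calls held with each of the 12 mice of their comparison left out in turn. The highest adjusted p in those limma fits was 0.0186 for Ren1 in ieET-1, 0.00338 for Agt in ieCre and 0.00971 for Agt in ieET-1. Over the 12 fits Ren1 in ieCre fell by 1.14 to 1.53 on the log2 scale.

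Because Agt and Ren1 both fell with time, their sequences upstream of the start are shown, from RefSeq (GRCm38.p6), 5′ to 3′ on the gene's strand, with TATAAA in capitals. For Agt the 250 bases are chr8:124569707-124569956 on the minus strand. For Ren1 only the 30 bases next to the RefSeq start are shown, chr1:133350644-133350673 on the plus strand. The GENCODE annotation starts this gene earlier and places 164 of its 250 bases, the 30 shown included, in the first exon.
Agt: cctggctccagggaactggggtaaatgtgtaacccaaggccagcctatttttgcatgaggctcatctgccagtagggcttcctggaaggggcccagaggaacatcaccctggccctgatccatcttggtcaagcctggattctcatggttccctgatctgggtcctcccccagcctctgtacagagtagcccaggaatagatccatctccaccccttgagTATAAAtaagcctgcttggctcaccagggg
Ren1: gTATAAAagaaggctcagggggtctgggct
In each gene TATAAA occurred once in the 250 bases searched on both strands, on the gene's own strand, beginning 30 bases before the RefSeq start in Agt and 29 bases before it in Ren1. Of 32851 mouse promoter windows of the same length, 12.4% held TATAAA anywhere on either strand. The share with it on the gene's own strand at this distance from the start was not counted. Windows of the other members are not shown, so whether TATAAA sets Agt and Ren1 apart was not tested. The letters CCAAT (in 33.8% of windows), GGGCGG (32.7%) and TGACG (17.8%) occurred in neither window on either strand. A match to letters is a description of the sequence, not evidence of a bound factor.

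Ace (ENSMUSG00000020681, chromosome 11, 105967945 to 105989964, plus strand, GRCm38), the converting enzyme, did not pass in any comparison. In ieCre mice its normalized value ran from 126 to 305 (median 199) at 16 days and from 107 to 220 (median 169) at 3 months. In ieET-1 mice it ran from 115 to 217 (median 161) at 16 days and from 102 to 258 (median 187) at 3 months. All 4 groups overlapped. The long-minus-short difference was -0.32 on the log2 scale in ieCre (95% interval -0.83 to 0.18) and 0.09 in ieET-1 (-0.42 to 0.59). Ace was high in the libraries rich in Gm42418: its median was 250 in those 4 libraries and 161 in the other 20. Whether that composition contributes to the spread of Ace was not tested. The gene overlaps an antisense transcript, Gm11651, and the counting was not stated to use strand.

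Agtr1a (ENSMUSG00000049115, chromosome 13, 30336441 to 30382867, plus strand, GRCm38), the angiotensin II receptor best known for vasoconstriction, was low in every mouse. Its mean at 16 days and at 3 months was 5.22 ± 0.999 and 3.97 ± 0.906 in ieCre, and 4.16 ± 0.819 and 4.16 ± 1.44 in ieET-1 mice (SD, n = 6 per group). Over all 24 mice the values ran from 2.38 to 6.42, from 32 to 99 reads, and every pair of groups overlapped. The long-minus-short difference was -0.33 in ieCre (95% interval -0.69 to 0.03, limma adjusted p = 0.325) and -0.03 in ieET-1 (-0.39 to 0.33). Its close relative Agtr1b, which is not among the 7 genes, had the higher level per kilobase of exon in each group, 4.76 to 6.10 against 1.43 to 1.87. The coding sequences of the pair are 90.8% identical over 1080 bases, so reads could be divided between them by the authors' counting, and the split of type 1 receptor reads is uncertain.

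Agtr2 (ENSMUSG00000068122, chromosome X, 21484544 to 21489164, plus strand, GRCm38), the type 2 receptor, was near the limit of detection. A floor of 3 reads corresponds to a normalized value of 0.177 to 0.461 depending on the library, and 9 of the 24 libraries had fewer than 3 Agtr2 reads. Its medians at 16 days and at 3 months were 0.347 and 0.380 in ieCre and 0.155 and 0.292 in ieET-1. With no filter on low values, which lets Agtr2 into the test, its smallest limma adjusted p in the 5 comparisons was 0.822. The exception was mouse 8088, an ieCre long-term animal at 3.51, with 46 reads; the next highest mouse of its group was at 0.501 and the highest of any other group at 0.895. Mouse 8088 also had the highest adrenal medulla score, 5.53 as mean log2(value + 1) of 5 markers, with Th at 65.3 and Chga at 159 in normalized value. The whole list stood at a summed value of 330.0 in that mouse, against at most 20.3 in any mouse of the other groups. The next highest score, 2.38, was in mouse 8089 of the same group, with Chga at 19.9 and Agtr2 at 0.407. Whether those cells account for the Agtr2 reads was not tested.

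Atp6ap2 (ENSMUSG00000031007, chromosome X, 12587801 to 12617049, plus strand, GRCm38) encodes the prorenin receptor, which is also an accessory protein of the vacuolar proton pump. It was abundant, with normalized values from 65.2 to 130 over the 24 mice, and the groups overlapped. Its long-minus-short difference was 0.11 in ieCre (95% interval -0.18 to 0.40) and -0.21 in ieET-1 (-0.50 to 0.08), neither past the threshold. Atp6ap2 stood lower in the 4 Gm42418-rich libraries, at a median of 75.2 against 101 in the others, the opposite of Ace.

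Lnpep (ENSMUSG00000023845, chromosome 17, 17521410 to 17625050, minus strand, GRCm38), an aminopeptidase that binds angiotensin IV, was the steadiest of the 7. Its values ran from 233 to 351, a highest-to-lowest ratio of 1.51, against 1.99 for Atp6ap2, 2.98 for Ace and 6.23 for Agt. Its mean at 16 days and at 3 months was 272 ± 21.4 and 272 ± 10.1 in ieCre, and 307 ± 25.7 and 281 ± 32.6 in ieET-1 mice (SD, n = 6 per group). The groups overlapped.

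None of the 6 tested genes passed between ieET-1 and ieCre at either time. At the short term 0.0825% of all genes passed; Lnpep came nearest, 0.18 higher on the log2 scale in ieET-1 (95% interval 0.01 to 0.34, unadjusted p = 0.0388 and limma adjusted p = 0.490). At the long term 0.00688% of all genes passed, and all 6 had an adjusted p of 0.999. For Agt the ieET-1-minus-ieCre difference was -0.19 (95% interval -0.60 to 0.22) at the short term and 0.04 (-0.37 to 0.45) at the long term. For Ren1 it was 0.06 (-0.60 to 0.71) and -0.19 (-0.85 to 0.46). These intervals leave room for a change of Ren1 by the transgene of some size in either direction, and a missed threshold does not show equality. The difference between the genotypes in their change with time was tested as an interaction, in which 0% of all genes passed. It was 0.23 for Agt (95% interval -0.35 to 0.81) and -0.25 for Ren1 (-1.17 to 0.67), and the smallest adjusted p among the 6 genes was 0.752. By edgeR and by DESeq2 on the recovered reads, also 0 of the 6 passed in these 3 comparisons.

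**Figure D2:**
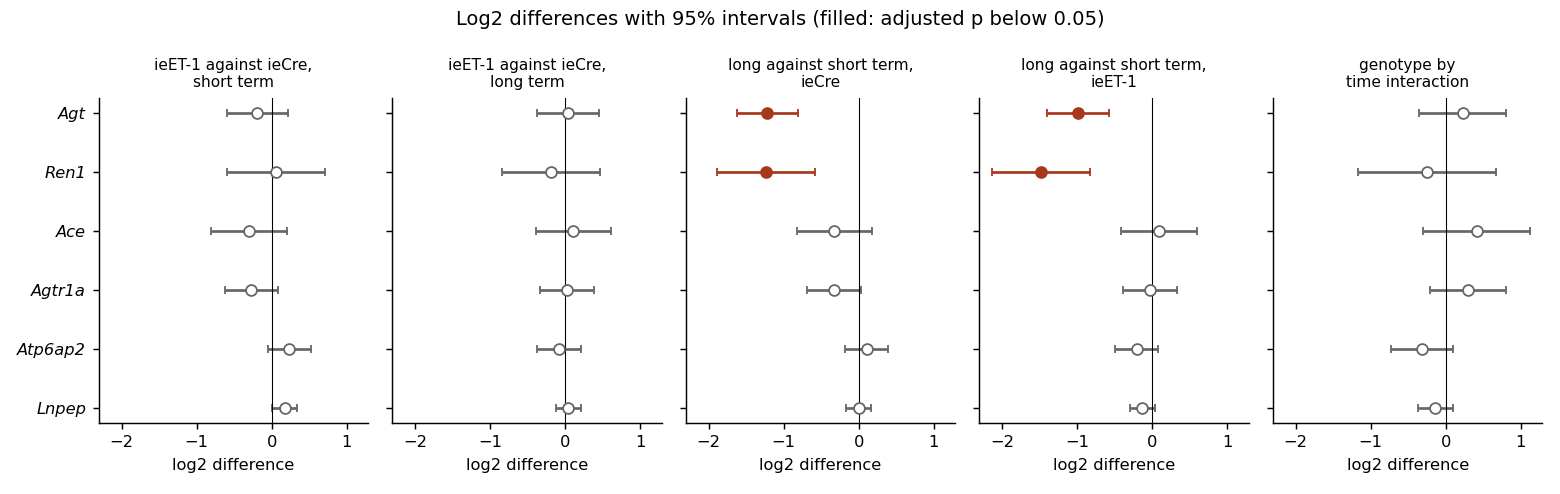
Log2(value + 1) differences (horizontal axis) with 95% intervals for the 6 tested genes in the 5 comparisons, first group minus second; filled red points have an adjusted p below 0.05. Only Agt and Ren1 in the 2 time comparisons are filled, with falls between 0.99 and 1.488.

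In the time comparison in ieCre, 2 of 6 tested genes fell and 0 rose, where 3.3% of all genes passed and 1.37% passed downwards. In ieET-1 2 of 6 fell and 0 rose, where 8.66% of all genes passed and 3.39% downwards. The same pair, Agt and Ren1, passed in both, Ren1 in ieCre with the dependence on processing given above. The median of the 6 log2 differences was -0.33 in ieCre and -0.17 in ieET-1, beside 0.01 over all genes tested in each. By unadjusted p Agt ranked 46th and Ren1 316th of 14544 genes in ieCre, and 193rd and 245th in ieET-1. By size, 22 genes had a more negative log2 difference than Agt in ieCre and 39 in ieET-1, and 20 and 5 genes a more negative one than Ren1. With quantile normalization the split of all calls in ieET-1 moved from 767 higher and 493 lower to 563 higher and 600 lower; Agt and Ren1 remained among the lower ones, at -1.07 and -1.54.

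The animal IDs were grouped into ranges drawn within each time, so no difference with time can be read within a range. No label names these ranges. The numbers themselves interleave, as short-term IDs 8754 to 9958 enclose long-term IDs 9485 to 9491. Agt averaged 9.75 to 14.6 in the 4 short-term combinations of genotype and ID range and 3.93 to 6.44 in the 4 long-term ones, each of 2 to 4 mice. Ren1 averaged 3.40 to 4.28 and 0.583 to 1.43. The 2 sets of means did not overlap for either gene. These are the same values that gave the calls with time, so this adds no support to them. The share of all genes with such a separation was not counted. A term for ID range in the fit balances the ranges within each time and cannot separate cohort from time. With it, Agt fell by 1.10 in ieCre and 1.05 in ieET-1, and Ren1 by 1.27 and 1.43.

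Markers of other cells moved with time as well. All 8 fibroblast markers had lower values at the long term in both genotypes, and 3 of them, the collagens Col1a1, Col1a2 and Col3a1, fell past the threshold in each. Of all genes tested, 1.37% passed downwards in ieCre and 3.39% in ieET-1. The summed level of the fibroblast list ran from 13034 to 18360 over the short-term mice and from 7284 to 14665 over the long-term mice. All 8 adipocyte markers had higher values at the long term in both genotypes and 3 passed in each, with Lep and Cidec in both. Of all 14544 genes tested, 281 passed upwards in ieCre and 767 in ieET-1. The sum of the adipocyte list ran from 997 to 1927 at the short term and from 1245 to 2859 at the long term. In bulk tissue fewer cells of a type and less RNA per cell cannot be told apart. With the fibroblast score as a term, a setting added after these values were seen, Agt fell by 1.53 in ieCre and by 1.31 in ieET-1 (limma adjusted p = 0.00335 and 0.0141). With the adipocyte score as a term it fell by 1.73 and 1.46 (0.00630 and 0.00889). Ren1 fell by 1.39 in ieCre and 1.65 in ieET-1 with the fibroblast term and by 1.07 and 1.33 with the adipocyte term, but its calls were lost (limma adjusted p = 0.0585 and 0.0583, then 0.254 and 0.151). With the fibroblast term Agtr1a passed as lower (-0.87, adjusted p = 0.0205) and Atp6ap2 as higher (0.64, adjusted p = 0.0200) in ieCre at the long term. In that fit 2899 of 14544 genes passed in ieCre, 1599 higher and 1300 lower, against 480 without the term.

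Markers of the adrenal cortex and kidney, organs that express renin, were compared with Ren1. The adrenal cortex score was the mean log2(value + 1) of 5 genes. It averaged 5.49 at 16 days and 3.604 at 3 months in ieCre, and 1.68 and 3.30 in ieET-1. The score was thus lower at 3 months in ieCre and higher in ieET-1, while Ren1 was lower in both. The part of adrenal RNA in the Ren1 values was not tested. With this score as a term, Ren1 fell by 1.13 in ieCre and missed the threshold (limma adjusted p = 0.133), and fell by 1.58 in ieET-1 and passed (0.0146). The 3 ieET-1 short-term mice lowest in adrenal score, 257, 258 and 256 (0.439, 0.468 and 0.558), had Ren1 at 3.30, 8.44 and 1.12, and so held both the highest and the lowest Ren1 value of their group. The summed level of the 5 kidney markers was at most 10.8 in every mouse but 9485, where it was 27.0, with Umod at 11.8 and Slc12a1 at 9.60. Mouse 9485 was also the only long-term mouse with Ren1 above 1.23. The long-term mouse next highest in kidney score, 9487 (1.25, Umod at 4.08), had the lowest Ren1 of its group, 0.366. Of the short-term mice, ieCre mouse 8754 had the highest kidney score (1.32) and the highest Ren1 of its group, 5.13. The ieET-1 mouse highest in kidney score at the short term, 8992 (1.26), had Ren1 at 3.75, within the range of its group. The part of kidney RNA in the Ren1 value of mouse 9485 was not tested. Without that mouse the fall of Ren1 in ieCre was larger, as given above. That follows from leaving out the highest long-term value and does not bear on kidney RNA.

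**Figure D3:**
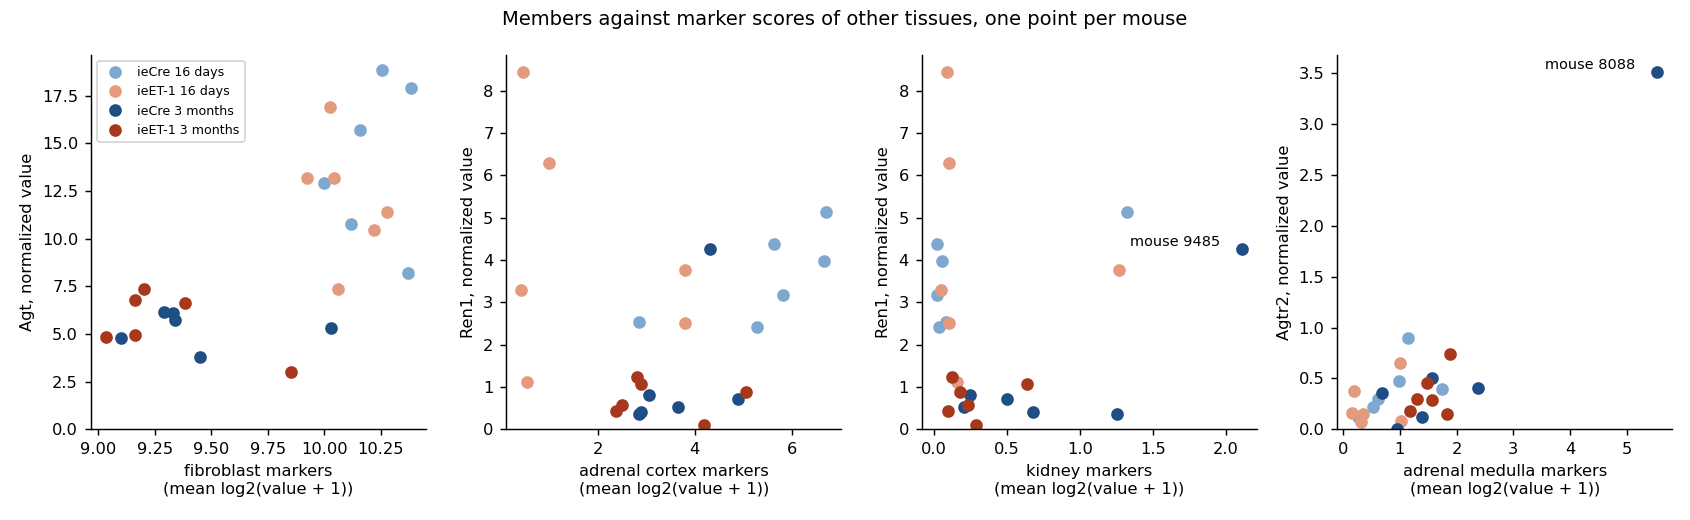
Normalized values of Agt, Ren1 and Agtr2 (vertical axes) against marker scores of other tissues (horizontal axes, mean log2(value + 1) of each marker list), 1 point per mouse, coloured by group. The short-term mice lie to the right in fibroblast score and high in Agt, long-term mouse 9487 lies among them in the score but not in Agt (5.30), mouse 9485 is highest in kidney score (2.11) with Ren1 at 4.26, and mouse 8088 is highest in adrenal medulla score (5.53) with Agtr2 at 3.51.

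Of the other enzymes that cut angiotensin peptides, some rose with time. Of 14 listed peptidases 13 were tested, and 1 passed in ieCre and 3 in ieET-1, beside 3.3% and 8.66% of all genes in those comparisons. In ieCre 1 passed as higher with time, Mme (neprilysin, which cuts angiotensin I to angiotensin 1-7). The mean value of Mme rose from 12.4 ± 1.44 to 22.5 ± 4.47 (log2 difference 0.80, limma adjusted p = 0.00981). In ieET-1 3 passed as higher: Thop1 (thimet oligopeptidase, 0.51), Dpp3 (dipeptidyl peptidase 3, which degrades angiotensin II, 0.44) and Ctsa (cathepsin A, 0.48). Their limma adjusted p were 0.00143, 0.00343 and 0.0132. None passed as lower, although 4 of the 13 had lower values at the long term in ieCre and 2 in ieET-1. Among them Anpep differed by -0.52 in ieCre (limma adjusted p = 0.132). The median log2 difference of the list was 0.08 in ieCre and 0.27 in ieET-1. Mme in ieET-1 differed by 0.49 and did not pass. Mas1, the receptor for angiotensin 1-7, averaged at most 0.098 in any group, below the floor of 3 reads. Igf2r, which binds prorenin among other ligands, and Agtr1b did not pass with time.

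**Figure D4:**
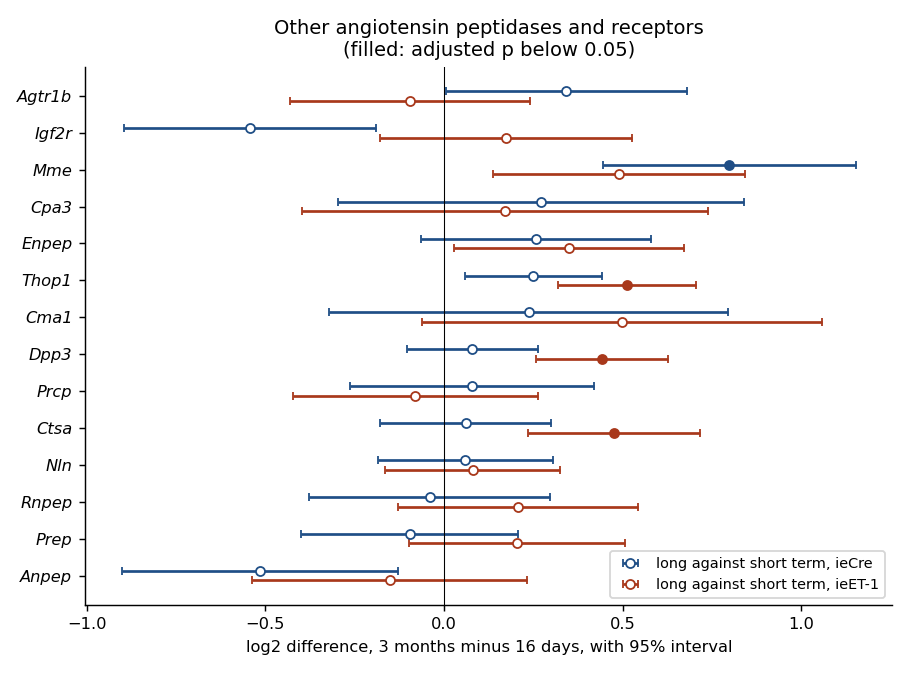
Long-minus-short log2(value + 1) differences (horizontal axis, 95% intervals) of 12 of the tested peptidases and the receptors Agtr1b and Igf2r in ieCre (blue) and ieET-1 (red); filled points have an adjusted p below 0.05. Mme in ieCre and Thop1, Dpp3 and Ctsa in ieET-1 are filled, all to the right of 0.

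Downstream of the receptors, 2 of 17 partners and signalling genes and 2 of 10 tested vascular targets of angiotensin II passed with time in ieCre, beside 3.3% of all genes. In ieET-1 these counts were 0 and 1, beside 8.66%. Among the signalling genes in ieCre, Rgs5, which limits signalling by Gq-coupled receptors and marks pericytes, rose by 1.41 (limma adjusted p = 0.0145). Of the 6 pericyte markers, Rgs5 included, 4 had lower values in that comparison, with a median log2 difference of -0.38. Agtrap, a protein that binds the type 1 receptor and favours its uptake, fell by 0.32 (limma adjusted p = 0.0422). Both vascular targets that passed in ieCre were lower at the long term (1.37% of all genes passed downwards), and Thbs1 (thrombospondin 1) fell by 0.95 (limma adjusted p = 0.0236). In ieET-1 Edn1, the mouse endothelin-1 gene, fell by 0.47 (0.0196). Of 4 tested kallikrein and kinin genes, Bdkrb2, the bradykinin B2 receptor, rose by 0.90 in ieET-1 (0.000865). Among 4 tested mineralocorticoid pathway genes, Hsd11b1, which regenerates glucocorticoid, rose by 0.63 in ieCre (0.0338), and Cyp11b2 (aldosterone synthase) fell short of the ieCre level by 1.38 in 16-day ieET-1 mice (log2 difference -1.38, adjusted p = 0.0214). All 5 adrenal cortex markers passed as lower in the same comparison, where 0.0825% of all genes passed in either direction. Their summed value was 2.7 to 73.0 in ieET-1 and 32.7 to 562.7 in ieCre. None of 15 tested proton pump subunits, partners of Atp6ap2, and none of 5 GLUT4 vesicle proteins, partners of Lnpep, passed in any of the 5 comparisons. Of all genes 0% to 8.66% passed in these comparisons, so 0 calls in lists this short is near that share. No interaction passed for any of these lists, so none of the changes with time was shown to differ between genotypes.

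The genes whose levels ran most closely with each member over the 24 libraries, by Pearson r of log2(value + 1) among 9385 or 9386 candidates with a mean of at least 10, differed between members. For Agt these were Ampd3 (0.88), Lama2 (0.86) and Col4a3 (0.86). For Ren1 they were Tgfb2 (0.81), Ube2r2 (0.80) and Ampd3 (0.77). Agt and Ren1 shared Ampd3, and once the group means were subtracted its r was 0.41 with Agt and 0.21 with Ren1. For Ace they were Map4 (0.96), Ptpn21 (0.95) and Fgfr1 (0.95), and for Atp6ap2 they were Tmem168 (0.96), Sppl2a (0.95) and Slc25a46 (0.95). In these 2 genes r stayed between 0.95 and 0.96 after subtracting the group means. For Lnpep the nearest were Zfp871 (0.89), Mbtps2 (0.88) and Akap11 (0.88), and for Agtr1a Acacb, Ecm1 and Dap, all at 0.70. The libraries share depth and composition differences, including Gm42418, so these are descriptions only.

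**Figure D5:**
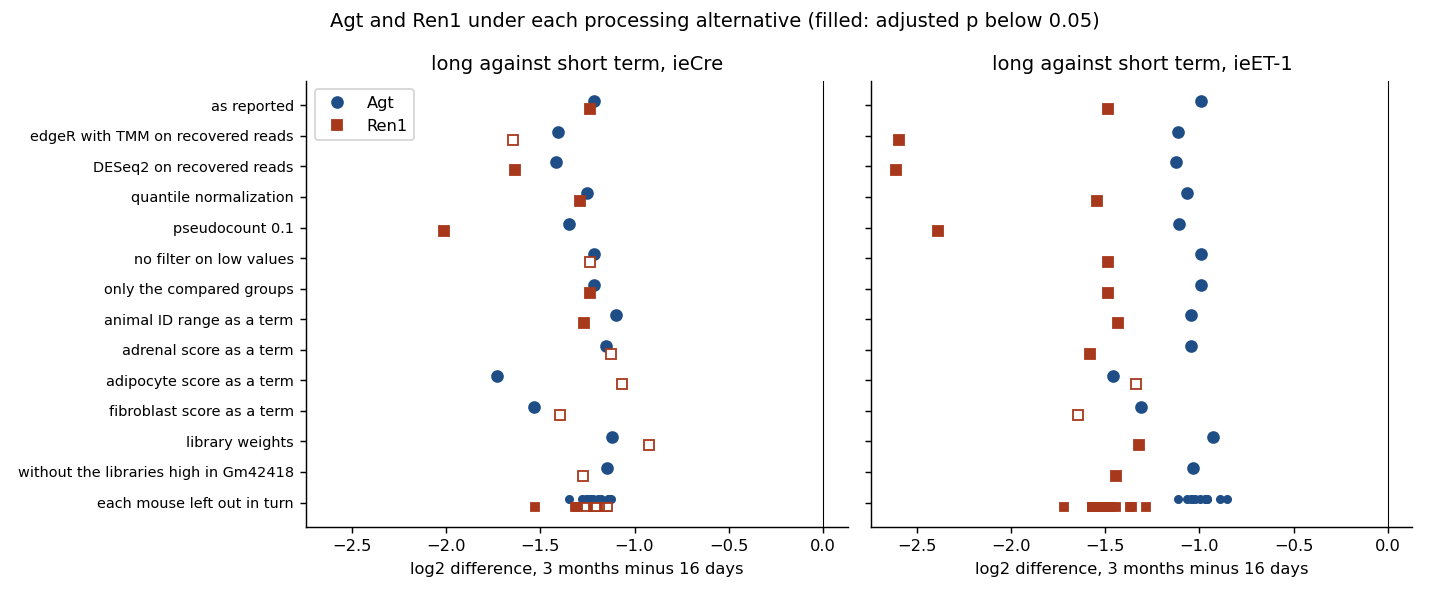
Long-minus-short log2 difference (horizontal axis) of Agt (blue circles) and Ren1 (red squares) in ieCre and ieET-1 as reported, under 12 other processing choices and with each mouse left out; filled symbols have an adjusted p below 0.05. Every Agt symbol is filled and every symbol lies to the left of 0, while Ren1 in ieCre is filled in 5 of the 12 other choices.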

How the data were processed

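The deposited table holds a normalized signal per gene and library: judged from the values, the authors divided whole reads by a factor of each library, which gives a scale near CPM. Of 482036 positive values, 100% were whole reads within 0.001 once multiplied back. The submitters' processing notes name STAR 2.3.1, edgeR 3.6.8, bcl2fastq 1.8.4, R 3.2.3 and FastQC. For the genome build, annotation and counter, they were not given in the sources used here. A row named ID, at most 0.0993% of a library's reads, was left out. Symbols and coordinates came from GENCODE release 21 (GRCm38), which may differ from the authors' annotation, and 28403 of 29020 rows (97.9%) matched.

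All 24 libraries entered 1 means model of 4 groups in limma 3.58.1 (R 4.3.3) with a variance trend on log2(value + 1) and 20 residual degrees of freedom, checked on simulated data. The alternatives were edgeR 4.0.16 with TMM and DESeq2 1.42.0 on the recovered reads, quantile normalization, a pseudocount of 0.1, no filter, only the compared groups, terms for animal ID range and for adrenal, adipocyte and fibroblast scores, library weights, leaving out the Gm42418-rich libraries, and leaving out each mouse. No pair of libraries agreed within sampling noise (lowest chi-square per degree of freedom 12.9 over 276 pairs). Named list genes are those with the smallest p of each list, up to 4, and genes alike are the 3 with the highest r. Per-kilobase levels divide by the union of annotated exons. The members and the gene lists were chosen with earlier results of these data known. Precision is limited by the 6 mice per group and, for Ren1 and Agtr2, by few reads. Values of some listed genes are not reported here.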

Additional observations from a re-analysis of the deposited data

Results flagged for a closer look

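Of 28 groups of 6 values (7 genes in 4 groups), 2 held a mouse far from the others. Chance alone flags about 1 in 20 groups of normally distributed values, and 2 of 28 is near that share. The values were not put on a log scale for this, so that rate need not hold here. Agtr2 was at 3.51 in ieCre long-term mouse 8088, and the next highest mouse of its group was at 0.501. The adrenal medulla markers Chgb, Pnmt and Dbh stood at 75.6, 16.9 and 13.4 in that mouse, against at most 7.99, 0.949 and 1.67 in any other. Ren1 was at 4.26 in ieCre long-term mouse 9485, and the next highest was at 0.813. The kidney marker Slc34a1 stood at 4.76 there and was higher in short-term mice 8754 (5.86) and 8992 (7.65). Ren1 was at 5.13 in mouse 8754, the highest of its group, and at 3.75 in mouse 8992. The part of other tissue in either value was not tested.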

How the results depend on the processing

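Agt passed in both time comparisons under all 12 alternatives and with each mouse left out, with log2 differences of -1.73 to -1.10 in ieCre and -1.46 to -0.93 in ieET-1. The number of genes of the 7 that passed with time was 2 in each genotype. In ieCre it was 1 (Agt) with edgeR, with no filter, with the adrenal term, with the adipocyte term, with library weights and without the Gm42418-rich libraries, and 1 to 2 with a mouse left out; with the fibroblast term it was 3, Ren1 replaced by Agtr1a and Atp6ap2. In ieET-1 it was 1 with the adipocyte term and 1 with the fibroblast term. Ren1 in ieCre had adjusted p of 0.0889 with edgeR, 0.0700 with no filter, 0.0806 with library weights and 0.0778 without the Gm42418-rich libraries; with no filter 29020 genes share the adjustment. The cause of the other changes was not tested. In the genotype comparisons and the interaction 0 passed under every alternative run. Over all genes the calls with time were 480 in ieCre and 1260 in ieET-1, against 70 to 2899 and 150 to 1898 under the alternatives, lowest with the adipocyte term. The 2899 calls in ieCre came with the fibroblast term, the same fit in which Agtr1a and Atp6ap2 passed. The calls between genotypes were 12 at the short term (1 to 55 under the alternatives) and 1 at the long term (1 to 2), and those of the interaction 0 (0 to 6, highest with DESeq2). The interaction uses all groups, so it has no fit on the compared groups alone.

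Small differences that never passed changed sign as follows. With ID range as a term the long-term genotype difference was -0.0766 for Agt, -0.0062 for Agtr1a, -0.0745 for Ace and 0.0463 for Atp6ap2, and the time difference was -0.0101 for Atp6ap2 and -0.0308 for Lnpep in ieCre and -0.0036 for Ace in ieET-1. With the fibroblast term the long-term genotype difference was -0.0142 for Agt, -0.0577 for Agtr1a and 0.0036 for Atp6ap2, and the ieET-1 time difference was -0.57 for Ace and 0.33 for Atp6ap2. With the adipocyte term the latter pair were -0.0751 and 0.0549. With the adrenal term Agtr1a was 0.13 in the short-term genotype comparison and -0.0687 in the interaction, and Lnpep -0.0118 with time in ieCre. With library weights Ren1 was -0.15 in the short-term and Agtr1a -0.0654 in the long-term genotype comparison, Lnpep -0.0100 with time in ieCre and Agtr1a 0.0439 in ieET-1. Without the Gm42418-rich libraries Ren1 was -0.0123 in the short-term genotype comparison, Agtr1a -0.16, Ace -0.15 and Atp6ap2 0.0450 in the long-term one, Lnpep -0.0110 with time in ieCre and Ace -0.19 in ieET-1. Lnpep with time in ieCre was -0.0077 with edgeR and -0.0162 with DESeq2.

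With a mouse left out, the genotype difference ran from -0.14 to 0.29 for Ren1 at the short term, and at the long term from -0.0423 to 0.17 for Agt, -0.0798 to 0.14 for Agtr1a, -0.0122 to 0.25 for Ace and -0.29 to 0.10 for Ren1. The time difference ran from -0.0323 to 0.0369 for Lnpep in ieCre and, in ieET-1, from -0.12 to 0.0755 for Agtr1a and -0.0334 to 0.23 for Ace. The interaction of Ren1 ran from -0.48 to 0.0416. No paired analysis was possible because no animal ID occurs in more than 1 group. Depth limits Agtr2 throughout and Ren1 at the long term.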
